A study of Drosophila melanogaster with 2 samples.

Results

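The microRNA hairpin mir-10 of Drosophila melanogaster, accession MI0000130, was followed in whole larvae of 2 genotypes through its listed products. The sheet of processed microRNA reads was searched for product identifiers that start with this accession, and every such product was kept. There were 2, MI0000130_1 and MI0000130_2, of 101 listed products from 83 hairpins. Both products together made up 4.44% of the reads of both libraries. The larvae were aged 48 h and grown at 25 °C. One library came from larvae labelled wild type. The other came from homozygotes for cdk9-G57S, an allele of the Cdk9 gene named for the protein change G57S. There was 1 library per genotype (n = 1), so no value below has a replicate error, and no test between the genotypes was possible. Every interval is a 95% interval of counting error only; PCR copies of a molecule are not independent reads, which makes these intervals too narrow as a measure of the error. The labels give no background strain, sex or number of larvae. With bulk RNA from whole animals, fewer cells that make a microRNA and less of it per cell cannot be told apart.

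As background, a microRNA gene is transcribed by RNA polymerase II into a primary transcript, from which the Microprocessor (Drosha with its partner Pasha) cuts a hairpin. Dicer then cuts the hairpin to a duplex, and 1 or both of its strands are loaded into an Argonaute protein, where the seed at the 5′ end pairs with target messages. Cdk9 is the catalytic part of P-TEFb, a kinase that phosphorylates RNA polymerase II and promotes its elongation; the title of the study names recruitment of the Microprocessor to elongating polymerase as its subject. The mir-10 gene is an old member of the Hox gene complexes and is found there in insects and vertebrates. In flies it is known for giving stable products from both arms, and which arm dominates is known to differ between insect species. Because the arms have different seeds, they pair with different targets.

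The label of a Hox complex hairpin was checked against an annotation of the fly genome, BDGP6.54, which is not the build dm3 named in the submitters' processing notes, so no coordinates are given. The annotation holds 262 microRNA hairpins and places mir-10 on the minus strand of arm 3R. It lies 7.08 kb from Deformed (Dfd), a Hox gene of the head segments, and 13.5 kb from Sex combs reduced (Scr), a Hox gene of the labial and first thoracic segments. Another hairpin, mir-993, lies 33.1 kb away on the opposite strand, beyond Dfd. The mir-10 hairpin falls in exon 2 of the 2 exons of the noncoding transcript CR42651, which spans 7584 bases on the same strand and carries the synonym pri-mir-10 in RefSeq's gene table. The hairpin is 933 bases into that exon of 1720 bases, so it is exonic, in a spliced noncoding RNA. It is annotated with 77 bases, a mature product of 22 bases from its base 9 to its base 30 on the 5′ arm, and one of 23 bases from base 49 to base 71 on the 3′ arm. The arms are 18 bases apart. The sheet does not say which arm the suffixes 1 and 2 stand for, so the products are called here by their identifiers.

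**Figure D1:**
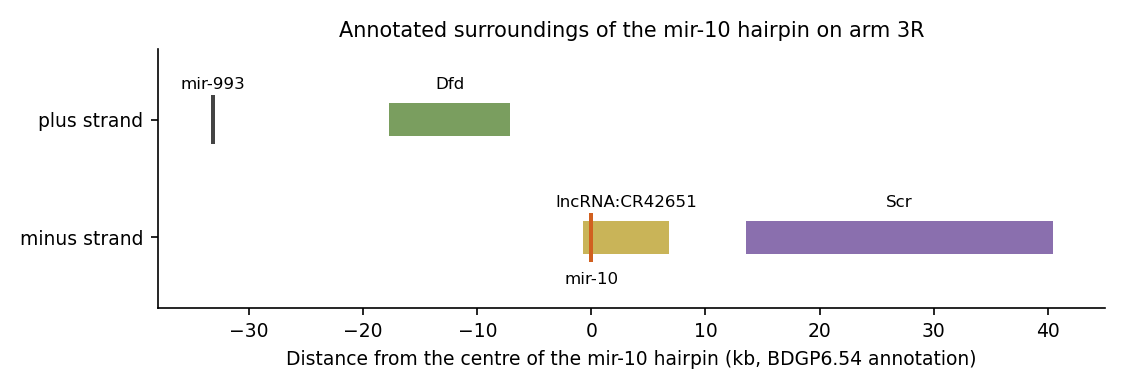
Annotated features around the mir-10 hairpin, by strand, against the distance in kb from its centre in BDGP6.54; coloured blocks are genes, and the hairpins mir-10 and mir-993 are drawn wider than to scale. The hairpin lies inside CR42651, 7.08 kb from Dfd and 13.5 kb from Scr.

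The libraries held 2135660 wild-type and 2204104 cdk9-G57S reads over the listed products, and the totals given in the sheet equalled these sums. The microRNA products carry no cdk9 message and no cell type markers by name, so neither the genotype nor the tissue label could be checked. Shares are percentages of these totals and so refer to listed products. The rarest listed product had 1023 reads in the libraries combined, far below either mir-10 product.

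The 2 products of mir-10 behaved differently between the libraries. MI0000130_1, the more abundant one, held nearly the same share in both. MI0000130_2 held a share 3.64 times as large in cdk9-G57S. The hairpin as a whole therefore took a larger part of the listed reads in cdk9-G57S, and the balance of its products moved toward MI0000130_2. The rise of the whole hairpin, a log2 ratio of 0.42, was near the median of 0.36 over all hairpins. With the most abundant listed product left out of both totals, this log2 ratio was 0.058, and that of MI0000130_1 was -0.43.

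MI0000130_1 had 69194 wild-type reads and 68302 cdk9-G57S reads. Its share was 3.24% of the wild-type library (3.22 to 3.26, exact Clopper-Pearson) and 3.10% of the cdk9-G57S library (3.08 to 3.12). It held rank 5 of the 101 products in each library. Its share in cdk9-G57S divided by that in wild type gave a ratio of 0.956, with an exact conditional-binomial interval of 0.946 to 0.967. Its log2 ratio of -0.06 ranked 56 of 101 from the highest, below the median log2 ratio of 0.24 over all listed products. Near its level, the next product in wild type was MI0000135_2 with 67925 reads, and the next in cdk9-G57S was MI0000387_2 with 63019. In both cases the counting intervals of the shares did not overlap.

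MI0000130_2 had 11610 wild-type reads and 43558 cdk9-G57S reads. Its share was 0.544% in wild type (0.534 to 0.554) and 1.98% in cdk9-G57S (1.96 to 1.99). It moved from rank 30 to rank 7 of the 101 products. The product just above it in wild type, MI0000363_2 with 11789 reads, could not be told from it, since the counting intervals of their shares overlapped. In cdk9-G57S it stood between MI0000387_2 with 63019 reads and MI0000135_2 with 40964, and overlapped with neither. The ratio of shares was 3.64 (3.56 to 3.71), a log2 ratio of 1.86 that ranked 12 of 101.

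**Figure D2:**
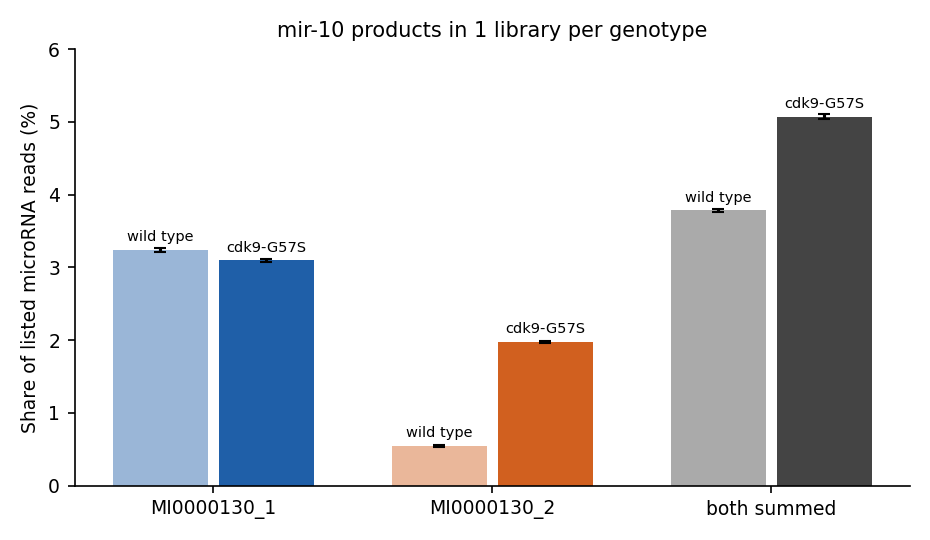
Share of all listed microRNA reads, in percent, of each mir-10 product and of both summed, with 1 library per genotype; pale bars are wild type, full bars cdk9-G57S, and error bars are 95% intervals of counting error only. MI0000130_1 stood at 3.24% and 3.10%, while MI0000130_2 stood at 0.544% and 1.98%.

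In place of a test, a product was called where its ratio of shares was at least 2 or at most 0.5 and its interval excluded 1. By this rule 28 of the 101 listed products (27.7%) were called higher in cdk9-G57S and 17 (16.8%) lower. MI0000130_2 was among the 28 and MI0000130_1 among the 56 (55.4%) within 2-fold. A ratio of 3.64 was thus not rare in this pair of libraries, where 11 other products had a larger one. Some of these may be the same reads listed under different hairpins. MI0000117_1 had 5289 and 24679 reads, and MI0000118_1 had 5247 and 24648. The counts of called products and the ranks treat such products as separate.

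**Figure D3:**
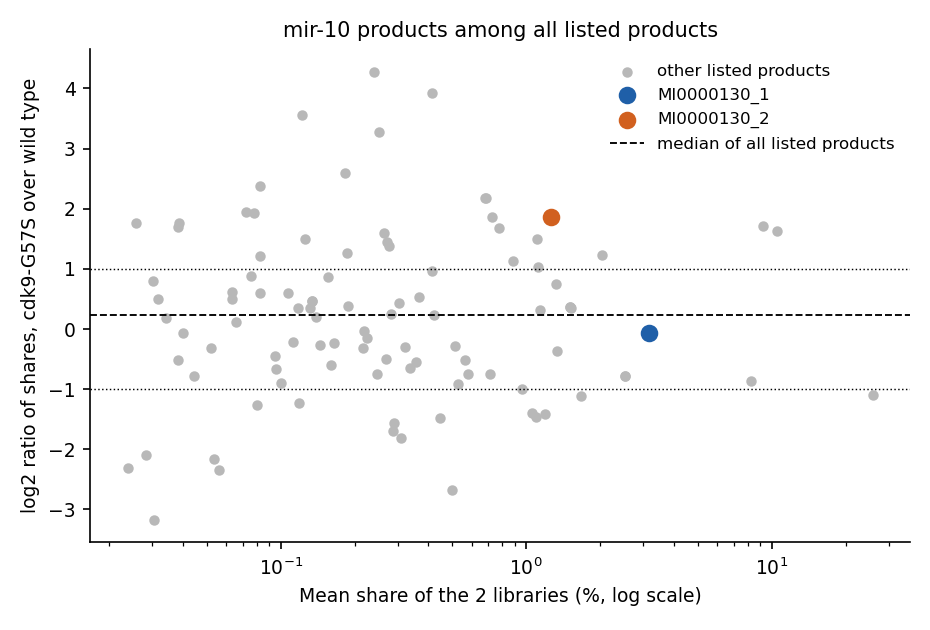
The log2 of the cdk9-G57S share divided by the wild-type share, plotted against the mean share of both libraries in percent, on a log axis, for the 101 listed products; dotted lines mark 2-fold and the dashed line the median of 0.24. MI0000130_2 lies at 1.86, above the upper 2-fold line, and MI0000130_1 at -0.06.

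Summed over both products, the hairpin had 80804 wild-type reads and 111860 cdk9-G57S reads. This was 3.78% of the wild-type reads (3.76 to 3.81) and 5.08% of the cdk9-G57S reads (5.05 to 5.10). It held rank 5 of the 83 hairpins in each library. The ratio of the summed shares was 1.34 (1.33 to 1.35), a log2 ratio of 0.42 that ranked 38 of the 83 hairpins, whose median was 0.36. The summed hairpin stayed within the 2-fold limit, which 24 of the 83 hairpins (28.9%) passed upward and 10 (12%) downward. In raw reads, cdk9-G57S had 31056 more reads of the hairpin. MI0000130_2 alone had 31948 more, and MI0000130_1 changed by -892.

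Scaling a library cancels out of the ratio between products of 1 hairpin. MI0000130_2 made up 14.4% of mir-10 reads in wild type (exact interval 14.1 to 14.6) and 38.9% in cdk9-G57S (38.7 to 39.2). MI0000130_1 made up the other 85.6% and 61.1%. For each read of MI0000130_2 there were 5.96 reads of MI0000130_1 in the wild-type library and 1.57 in the mutant library. The ratio of MI0000130_2 to MI0000130_1 was therefore 3.80 times as high in cdk9-G57S (3.71 to 3.89, normal approximation from the 4 counts), a log2 change of 1.93. MI0000130_1 remained the more abundant product in both libraries.

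The same change was computed for all 18 hairpins with 2 listed products, each time as the less abundant over the more abundant product by summed reads. It was at least 2-fold in either direction in 12 of the 18 (66.7%), so a change of that size was common. It favoured the less abundant product by at least 2-fold in 3 of the 18 (16.7%), among them mir-10, and the more abundant one in 9 (50%). These directions depend on the order of the products, since a product with many reads in 1 library can become the more abundant one by summed reads. Ordered by wild-type reads, the change favoured the less abundant product by at least 2-fold in 6 of the 18 hairpins and the more abundant one in 6. By summed reads the log2 changes ran from -5.65 to 1.93 with a median of -1.33, and mir-10 had the highest; by wild-type reads they ran from -3.97 to 5.65, and the median turned to 0.43. The next by summed reads were MI0000370 with 1.21 and MI0000412 with 1.20. The first place of mir-10 depends on the order too. Ordering by cdk9-G57S reads put mir-10 first as well, but this is no separate check, since it changed the product order in MI0000123 only. Ordered by wild-type reads mir-10 was at place 4, behind MI0005847, MI0000118 and MI0000120. In these 3 the product that was less abundant in wild type was the more abundant one in cdk9-G57S. Of these, MI0000118_1 and MI0000120_1 were each within 10% of a product listed under a different hairpin, in both libraries, and may share reads with it. By summed reads mir-10 was also first in the 10 hairpins where both products reached 1000 reads in both libraries. This had to be so, since these hairpins are part of the 18. By the size of the change without its sign, mir-10 ranked 8 of 18, with a median size of 1.73.

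With its sign and by summed reads, the change was nearest to that of mir-10 in MI0000370 and MI0000412, compared over 2 libraries. By size without the sign, other hairpins lay nearer to the 1.93 of mir-10. Among these were MI0005812 with 2.00 and MI0000410 with 2.09, both toward the more abundant product. In MI0000370 the less abundant product, MI0000370_1, went from 2406 to 3424 reads and from 26.8% to 45.8% of its hairpin, while MI0000370_2 went from 6575 to 4056 reads. MI0000366_1, of another hairpin, was listed with the same 2406 and 3424 reads as MI0000370_1, so these may be the same reads counted for both, and the parts of MI0000370 are uncertain. In MI0000412 the less abundant product, MI0000412_2, went from 637 to 2523 reads and from 2.93% to 6.46%, while MI0000412_1 went from 21127 to 36515. MI0000429_2 of another hairpin, with 693 and 2727 reads, was within 10% of MI0000412_2 in both libraries, though not equal to it. Whether they share reads was not tested, so the part of MI0000412_2 may be uncertain too. The more abundant partner had a lower share in cdk9-G57S in MI0000370 (log2 ratio -0.74), a higher one in MI0000412 (0.74), and nearly the same one in mir-10 (-0.06). In percentage points of the hairpin's reads, the gain of the less abundant product was 24.6 for mir-10, 19.0 for MI0000370 and 3.54 for MI0000412.

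**Figure D4:**
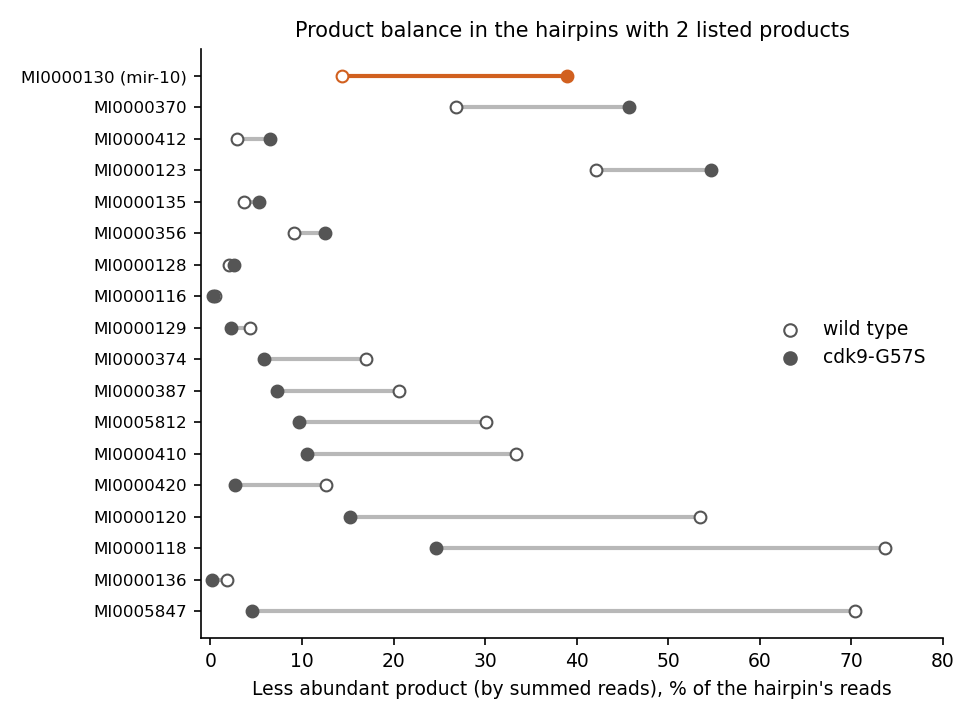
The less abundant product (by summed reads) as a percentage of its hairpin's reads, for the 18 hairpins with 2 listed products, sorted by the log2 change of the product ratio; open circles are wild type, filled circles cdk9-G57S, 1 library each. For mir-10 (orange) the part went from 14.4% to 38.9%.

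A pair with 1 product called higher and the other within 2-fold, as in mir-10, was found in 7 of the 18 hairpins (38.9%). Another 4 (22.2%) had 1 product called lower and the other within 2-fold. The suffix gave no common direction: the product with suffix 2 gained on that with suffix 1 in 9 of the 18 hairpins, as in mir-10, and lost in the other 9.

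The listed products nearest to each mir-10 product in log2 ratio were named as most alike, over 2 libraries only. For MI0000130_2 they were MI0000420_2, with 6665 and 25048 reads and a ratio of shares of 3.64, and MI0000429_2, with 693 and 2727 reads and a ratio of 3.81. For MI0000130_1 they were MI0005811_1, with 872 and 859 reads and a ratio of 0.955, and MI0005838_1, with 4716 and 4758 reads and a ratio of 0.978. These 4 products come from other hairpins and were less abundant than the mir-10 product they resemble.

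Reads that match several hairpins could be counted more than once, and how such reads were treated is not given in the sources used here. No product of another hairpin came within 10% of either mir-10 product in both libraries. The nearest to MI0000130_1 was MI0000135_2, with 67925 and 40964 reads, which differed by up to 40.0% (MI0000134_1 had nearly the same reads as MI0000135_2, with 67924 and 40961, so these may be the same reads). The nearest to MI0000130_2 was MI0000359_2, with 12389 and 36114 reads, which differed by up to 17.1%. Neither product was thus listed a second time under another hairpin with the same reads, but reads shared in part with other hairpins were not tested.

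The size of each ratio depended on the scaling, which moves every log2 ratio by the same amount. The authors also deposited a normalized signal, in which MI0000130_1 stood at 76314 for wild type and 61923 for cdk9-G57S, and MI0000130_2 at 12805 and 39490. On that scale all log2 ratios are lower by 0.24, and the median over listed products is 0.00. The ratio was 0.811 for MI0000130_1, 3.08 for MI0000130_2 and 1.14 for both summed. There, 24 of the 101 products (23.8%) were at least 2-fold higher and 24 (23.8%) at least 2-fold lower. With the most abundant listed product left out of both totals, the ratios were 0.742, 2.82 and 1.04. Under each of the 7 scalings, the original one included, MI0000130_2 was more than 2-fold higher, MI0000130_1 was lower by less than 2-fold, and the sum was higher by less than 2-fold. Among these, the deposited scale and recomputed DESeq2 factors gave the same ratios and are not separate checks. Differences between the libraries other than genotype, such as the developmental stage reached at the same age or the preparation, cannot be told apart from the mutation.

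**Figure D5:**
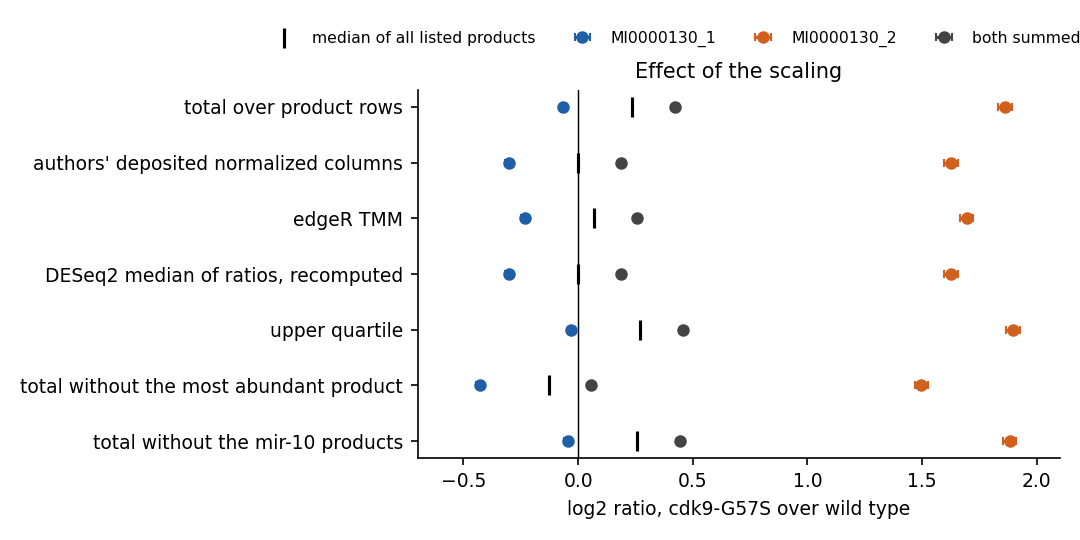
The log2 ratio, cdk9-G57S over wild type, of each mir-10 product and of both summed under 7 scalings of the libraries; error bars are 95% intervals of counting error, and black ticks mark the median of all listed products. MI0000130_2 lies between 1.497 and 1.90, and MI0000130_1 between -0.43 and -0.030.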

How the data were processed

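Non-coding RNA of 1 wild-type and 1 cdk9-G57S larval sample was profiled after Trizol extraction and Illumina sequencing, per the labels' protocols. Bowtie and the build dm3 appear in the submitters' processing notes; for a Bowtie version, trimming and the microRNA release, the sources used here give nothing. The authors deposited whole-number read counts per product, used here for each ratio, and a signal that the column headers call normalized. DESeq2 factors recomputed from the counts gave the same ratios for mir-10 as that signal. Footer lines were left out. None of the 83 hairpin accessions was found in the gene tables at hand (0 matched), so mir-993 and the other relatives of mir-10 could not be given values; the pairing of MI0000130 with mir-10 was supplied with the accession.

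Counts were divided by library totals. Ratios of shares have exact conditional-binomial intervals, shares exact Clopper-Pearson ones, all at 95%. The limit was 2-fold, with a minimum of 20 summed reads that removed no product. The rule was also run on simulated counts with counting error only. That run cannot show how the rule does with variation between samples or PCR copies. Products named besides those of mir-10 are the 2 nearest in log2 ratio to each and, for hairpins, the 2 nearest in signed change. Products next in rank, next in reads, ahead of mir-10 in an order, or close to a named product in reads were named after their values were seen. So were the most abundant product, the hairpins near mir-10 in size of change and the hairpin whose product order changed. Members and rules were chosen with earlier results of these data known. Alternatives were other scalings (edgeR 4.0.16, DESeq2 1.42.0 in R 4.3.3), a pseudocount of 5, other minimums and limits, and other orders of the products. Python 3.11.15, scipy 1.17.1 and an Ensembl release 115 annotation were used.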

Additional observations from a re-analysis of the deposited data

How the results depend on the processing

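The products' parts of the hairpin and the change of 1.93 in their log2 ratio cannot move on the deposited scale, which divides each library by a common factor. A pseudocount of 5 moved them by less than counting error, which was bound to happen at these read counts. The log2 ratios kept their sign under each scaling and, with 1 exception, moved by more than counting error. On the deposited scale and with recomputed DESeq2 factors they were -0.30 for MI0000130_1, 1.62 for MI0000130_2 and 0.19 for the sum. With TMM they were -0.23, 1.69 and 0.26, with upper-quartile scaling -0.030, 1.90 and 0.46, and without the most abundant product -0.43, 1.497 and 0.058. Without the mir-10 reads in the totals they were -0.045 for MI0000130_1 and 0.44 for the sum, and 1.88 for MI0000130_2, which is the exception. A pseudocount of 5, no minimum and a minimum of 1000 reads in each library moved them by less than counting error. Of the listed products, 29 were at least 2-fold lower without the most abundant product and 10 hairpins were with reads summed per hairpin, against 17 products; a limit of 1.5-fold gave 30 lower and one of 4-fold gave 6 lower and 8 higher, against 28 higher at 2-fold. Ordering products by wild-type reads, chosen after the data were seen, put mir-10 at place 4 of 18 instead of 1 and moved the counts of 2-fold changes toward the less and the more abundant product from 3 and 9 to 6 and 6. No paired analysis was possible because only 1 library was sequenced per genotype. At this depth counting error was small, but variation between samples and PCR copies are not covered by it.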
